A study of Mus musculus with 46 samples.

Results

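The compounds described here are those of 6 deposited metabolite tables whose names contain a purine or pyrimidine base or nucleoside or the words uric acid. The words were adenosine, adenine, guanosine, guanine, inosine, xanthine, xanthosine, uric acid, uridine, uracil, cytidine, cytosine, thymidine and thymine. They gave 64 different names among 2801, and 187 of the 5762 entries of the 6 tables. The tables held 35 of 723 compounds for kidney at 12 weeks, 35 of 737 for liver and 27 of 1495 for serum. At 18 months they held 39 of 985 for kidney, 35 of 954 for liver and 16 of 868 for serum. Of the names, 6 were in all 6 tables, 36 in at least 3 and 21 in 1 table only.

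Purines and pyrimidines are the ring compounds from which nucleic acids, energy carriers such as ATP and sugar carriers such as UDP-glucuronate are built. Cells make them new or salvage free bases and nucleosides. Unused purines are degraded through hypoxanthine and xanthine to uric acid, which mouse liver turns into allantoin, while uracil and thymine are opened to small amino acids. The kidney filters, takes up and secretes uric acid and nucleosides, and the liver holds most of the degrading enzymes.

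All mice were wild-type C57BL/6 on normal chow. At 8 weeks males underwent castration or a sham procedure and females a sham procedure, and tissue was collected at 12 weeks or 18 months. Sham males, castrated males and sham females are compared here within 1 age and tissue. The series asked how castration bears on ageing in the 2 sexes.

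Each table gives 1 relative abundance per compound and group, which is the authors' mean. No label or file gives the number of animals behind it or their spread, so no metabolite difference below has a test or an error. None states whether the tissues of 1 age came from the same animals, so a count of tables is no count of independent readings. Differences are log2 ratios of a group mean over the sham male mean, called the castration ratio for castrated males and the sex ratio for sham females. A compound is called higher or lower when the ratio passed 1.5-fold, a limit of 0.58 on the log2 scale, and its count is set beside the share of all compounds of the table past the same limit. Both ratios have the same sham male mean below the line, so their likeness is no result and they are only given side by side. Abundances depend on how each compound ionizes and on the table's own scaling, so levels are compared only between groups of the same table.

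The names fall into 36 entries of free bases (7 names), 24 of nucleosides (6 names), 12 of deoxynucleosides (7 names) and 33 of nucleotides (12 names). A further 43 entries (18 names) are modified bases or nucleosides, 14 (5 names) are larger carrier nucleotides, 7 (3 names) are methylxanthines and 4 are uric acid. The remaining entries are a fluorinated deoxyuridine phosphate and a carbaguanine, with 1 entry each, and 12 entries of 3 hippuric acids. Hippuric acid is a glycine conjugate of benzoic acid, and its name matches only because it contains the letters of uric acid. Without the hippuric acids 61 names and 175 entries remain, and counts are given both ways where they differ.

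The only gauge of measurement error in the tables is that some compounds are listed under a pair of names. AMP, GMP, CMP, ADP and NADP gave 13 such pairs, of which 9 had castration ratios of the same sign and 10 had sex ratios of the same sign. The castration ratios of a pair differed by 0.03 to 1.46 with a median of 0.14, and 2 of 13 pairs differed by more than the 1.5-fold limit. Both of these were in liver at 18 months. For sex the gap ran from 0.03 to 1.53 with a median of 0.28, and 3 pairs passed the limit. A ratio near the limit is therefore weak evidence for any single entry, and in liver at 18 months larger ratios are too. IMP (inosinic acid), whose names the selecting words do not match, also has paired entries, which are not among the 13. Their castration ratios were 0.91 and 0.83 in kidney and -0.49 and -0.49 in liver at 12 weeks. The sex ratios there were 1.03 and 0.89, and -0.44 and -0.38. In liver at 18 months the IMP entries had 0.12 and 0.069 for castration and -0.037 and 0.0035 for sex.

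After castration, 10 of the 35 kidney compounds at 12 weeks were higher and 3 were lower, beside 13.7% higher and 10.4% lower among all 723. Without the hippuric acids the counts were 8 and 3 of 33. In liver of that age 3 of 35 were higher, beside 11.4%, and 7 were lower, beside 15.3%. In serum 6 of 27 were higher, beside 16.5%, and 7 lower, beside 13%, or 5 and 7 of 24 without the hippuric acids. Of these serum entries 5 rest on a repeated lowest value of a column, and without them 3 were higher and 5 lower of 22. The 5 lower still include AMP, whose mean in castrated males was near the lowest value of that column. Kidney at 12 weeks had more members above than below sham males at this limit, though past 2-fold there were 3 of each, liver had more below, and serum had about as many on each side. The share of all compounds past 2-fold was not counted.

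At 18 months 7 of 39 kidney compounds were higher after castration, beside 14.7%, and 8 were lower, beside 11.8%. Of the lower entries 3 were hippuric acids, which leaves 7 and 5 of 36. Liver had 6 higher and 6 lower of 35, beside 15.9% and 11.4%. Serum had 2 higher and 2 lower of 16, beside 16.6% and 13.4%, or 2 and 1 of 14 without the hippuric acids. The shares of higher entries lay near the background in all 3 tissues, and so did the share of lower kidney entries once the hippuric acids were left out.

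Between sham females and sham males, 9 of 35 kidney compounds at 12 weeks were higher in females, beside 16.5%, and 4 were lower, beside 13.3%, or 7 and 4 of 33 without the hippuric acids. In liver 1 was higher, beside 10.7%, and 3 were lower, beside 16.4%. In serum 11 of 27 were higher, beside 22.7%, and 5 lower, beside 16.5%, or 9 and 5 of 24 without the hippuric acids. Kidney at 18 months had 3 higher, beside 12.5%, and 16 of 39 lower, beside 24.9%, or 3 and 14 of 36 without the hippuric acids. These lower members were spread over bases, nucleosides, nucleotides and modified nucleosides, and 10 of the 25 purines and 4 of the 11 pyrimidines were among them. Liver had 6 higher, beside 16.8%, and 7 lower, beside 15.3%. Serum had 4 of each among 16, beside 17.7% higher and 24.1% lower, or 4 and 3 of 14 without the hippuric acids.

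**Figure D1:**
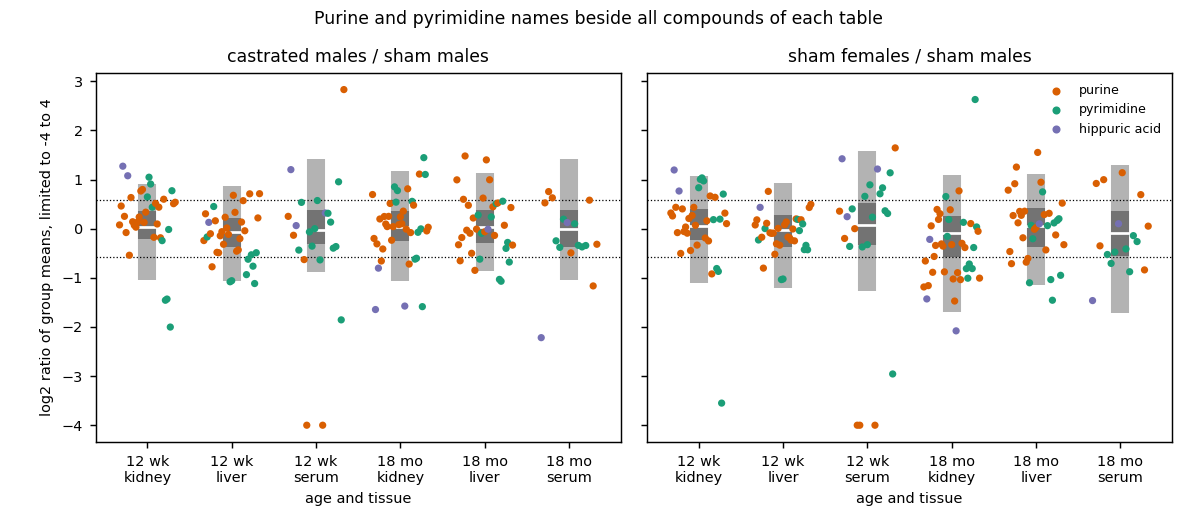
Log2 ratio of castrated males (left) and sham females (right) over sham males for each purine or pyrimidine name (points, coloured by ring) in the 6 tables, with grey bars for all compounds of the table (light, 5th to 95th percentile, dark, quartiles, white line, median) and dotted lines at 1.5-fold. Entries at a repeated lowest value are left out, and points beyond 4 are drawn at 4. In kidney at 18 months 16 of 39 points lie under the lower line in females.

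Thymine and thymidine were the members with the most regular difference. Thymine is the base particular to DNA, and thymidine is its deoxynucleoside, which cells take up or release when DNA is degraded. Thymine was below the sham male mean in castrated males in all 6 tables, past the limit in 4 of them, and thymidine in all 5 tables that list it, past the limit in 3. In kidney at 12 weeks thymine was 0.39 in sham males against 0.144 in castrated males and 0.213 in females, ratios of -1.43 for castration and -0.87 for sex. Thymidine in the same table was 0.267 in sham males against 0.0972 in castrated males and 0.152 in females, ratios of -1.46 for castration and -0.81 for sex. Castrated males were the lowest group for both.

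In liver at 12 weeks thymine was 0.00637 in sham males against 0.00333 in castrated males and 0.00725 in females, so that castrated males (-0.94) and females (0.19) lay on opposite sides of sham males. Serum of that age gave the same order, with a thymine ratio of -0.36 for castration and 0.31 for sex and a thymidine ratio of -0.40 and 0.36. None of these serum ratios passed the limit.

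At 18 months sham males had the highest mean of both compounds in every tissue. Kidney thymine was 0.0096 in sham males against 0.00633 in castrated males and 0.00477 in females and kidney thymidine was 0.233 in sham males against 0.151 in castrated males and 0.133 in females. Their castration ratios of -0.60 and -0.62 were just past the limit. Liver thymine was 0.0027 in sham males against 0.00129 in castrated males and 0.000986 in females, ratios of -1.07 for castration and -1.46 for sex, and thymidine was 0.0508 in sham males against 0.0249 in castrated males and 0.0248 in females, ratios of -1.03 for castration and -1.04 for sex. The thymine level at 18 months was in the lowest 0.734% of the liver table and the lowest 8.73% of the kidney table. In serum the castration ratios were -0.37 for thymine and -0.34 for thymidine, and females had thymidine at -0.88.

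Across the 5 tables with both, the castration ratio of the base and that of the nucleoside differed by at most 0.04, less than the median gap of entries for a single compound. Whether the entries are 2 separate compounds was not tested, so they are not counted here as separate support for each other. For sex their ratios were up to 0.73 apart, in serum at 18 months.

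**Figure D2:**
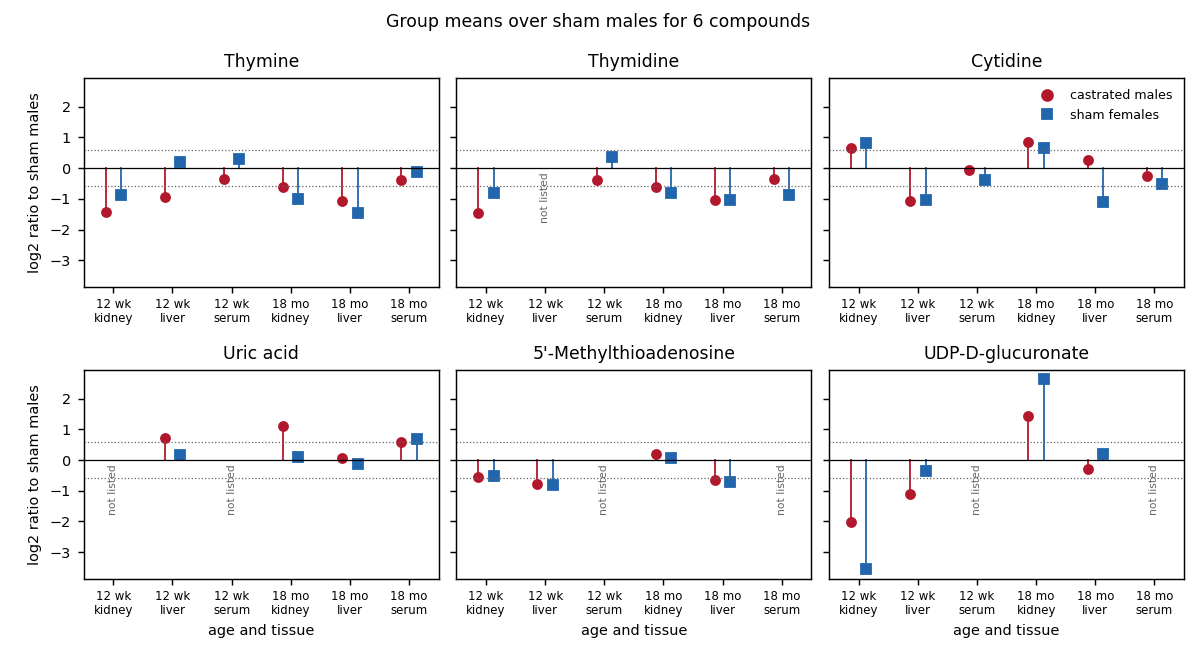
Log2 ratio of the castrated male mean (red circles) and the sham female mean (blue squares) over the sham male mean for 6 compounds in the 6 tables, with dotted lines at 1.5-fold. Thymine and thymidine lie below 0 for castrated males wherever listed, uric acid lies above 0, and UDP-D-glucuronate changes side between the kidney tables.

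Cytidine, a part of RNA on which cytidine deaminase acts, and its base cytosine differed by tissue. In kidney cytidine was higher in castrated males at both ages. Its level at 12 weeks was 0.504 in sham males against 0.789 in castrated males and 0.899 in females (0.65 for castration and 0.83 for sex), and at 18 months it was 0.0192 in sham males against 0.0347 in castrated males and 0.0303 in females (0.85 for castration and 0.65 for sex). Kidney cytosine at 12 weeks was 0.287 in sham males against 0.389 in castrated males and 0.563 in females, past the limit for sex alone (0.44 for castration and 0.97 for sex). At 18 months it was 0.0101 in sham males against 0.0173 in castrated males and 0.0115 in females, past the limit for castration alone (0.77 for castration and 0.19 for sex).

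In liver at 12 weeks both were more than 2-fold below sham males in both other groups. Cytidine was 0.0221 in sham males against 0.0104 in castrated males and 0.0108 in females, and cytosine was 0.0165 in sham males against 0.0079 in castrated males and 0.00809 in females. The castration ratios were -1.08 and -1.06, only 0.02 apart, and the sex ratios -1.04 and -1.02. Whether the cytidine and cytosine entries are 2 separate compounds was not tested, so they are not counted here as separate support. In liver at 18 months cytidine was 0.0127 in sham males against 0.0153 in castrated males and 0.0059 in females, with females alone low (0.28 for castration and -1.10 for sex). Serum cytidine stayed within the limit at both ages, with castration ratios of -0.066 and -0.25 and sex ratios of -0.37 and -0.53. Serum cytosine was lower only in females at 18 months (-0.71).

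Uracil, the RNA base that the liver degrades to beta-alanine, was lower in liver of castrated males at 12 weeks, at 0.454 in sham males against 0.295 in castrated males and 0.442 in females (-0.62 for castration and -0.04 for sex). At 18 months its liver ratio was of the opposite sign and within the limit, 0.56. Kidney uracil was close to sham males after castration at both ages (-0.017 and -0.074), while females were lower at 18 months, at 2.29 in sham males against 2.18 in castrated males and 1.39 in females (-0.72). Serum uracil was higher in both other groups at 12 weeks, at 3.32e-06 in sham males against 6.43e-06 in castrated males and 7.3e-06 in females (0.95 for castration and 1.14 for sex), and within the limit at 18 months (-0.34 for castration and -0.26 for sex).

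Uridine, the nucleoside of uracil and the main pyrimidine carried in blood, was below sham males in castrated males in each of the 3 tables that list it. In serum at 12 weeks it was 1.39e-05 in sham males against 3.84e-06 in castrated males and 1.79e-06 in females (-1.86 for castration and -2.96 for sex), the opposite direction to uracil there. In liver at 12 weeks it was 1.15 in sham males against 0.798 in castrated males and 1.23 in females (-0.53 for castration and 0.10 for sex). Kidney uridine at 18 months was nearly equal in castrated and sham males and lower in females, at 0.466 in sham males against 0.465 in castrated males and 0.265 in females, a sex ratio of -0.81.

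UMP and UDP, the uridine nucleotides from which UTP and the sugar carriers are made, had ratios of opposite sign in kidney at 18 months. UMP was higher in castrated males at 12 weeks, at 0.19 in sham males against 0.324 in castrated males and 0.309 in females (0.77 for castration and 0.70 for sex), and at 18 months, at 0.596 in sham males against 1.28 in castrated males and 0.61 in females (1.10 for castration and 0.035 for sex). UDP in kidney at 18 months was 0.0207 in sham males against 0.00688 in castrated males and 0.0158 in females (-1.59 for castration and -0.38 for sex). Liver at 18 months had UMP at 11 in sham males against 6.86 in castrated males and 5.69 in females, lower in both other groups (-0.68 for castration and -0.95 for sex). Liver UDP was lower in castrated males at 12 weeks, at 0.0402 in sham males against 0.0237 in castrated males and 0.0299 in females (-0.76 for castration), and within the limit at 18 months (-0.40).

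UDP-D-glucuronate, the donor that glucuronosyltransferases use to conjugate steroids, bilirubin and drugs, had the widest kidney difference. At 12 weeks it was 0.68 in sham males against 0.17 in castrated males and 0.0581 in females, ratios of -2.0 for castration and -3.55 for sex. At 18 months it was 0.00766 in sham males against 0.0209 in castrated males and 0.0474 in females, ratios of 1.45 for castration and 2.63 for sex. The order of the 3 groups was reversed between the ages, with castrated males in the middle both times. Both 18-month ratios rest on a sham male value that was low for its column, whose median was 0.0992. The ages were measured as separate tables and the difference between them was not tested. In liver it was 0.131 in sham males against 0.0603 in castrated males and 0.103 in females at 12 weeks (-1.12 for castration and -0.34 for sex) and within the limit at 18 months (-0.28 for castration and 0.20 for sex). UDP-N-acetylglucosamine, the donor for protein glycosylation, was listed in liver at 12 weeks only, with ratios of -0.49 for castration and -0.43 for sex.

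Counted by ring, the pyrimidines in liver at 12 weeks had 6 of 10 entries lower after castration and 0 higher, with a median ratio of -0.69, while 1 of 24 purines was lower and 3 were higher. The table's background was 15.3% lower and 11.4% higher. Several of these entries share a ring with a parent compound, such as cytosine with cytidine, so they are not 10 independent readings. In liver at 18 months 4 of 11 pyrimidines were lower and 0 higher, against 2 lower and 6 higher of 23 purines, beside 11.4% lower and 15.9% higher in the table. In the kidney tables pyrimidines fell on both sides, with 4 higher and 3 lower of 10 at 12 weeks, beside 13.7% and 10.4%, and 4 higher and 3 lower of 11 at 18 months, beside 14.7% and 11.8%.

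**Figure D3:**
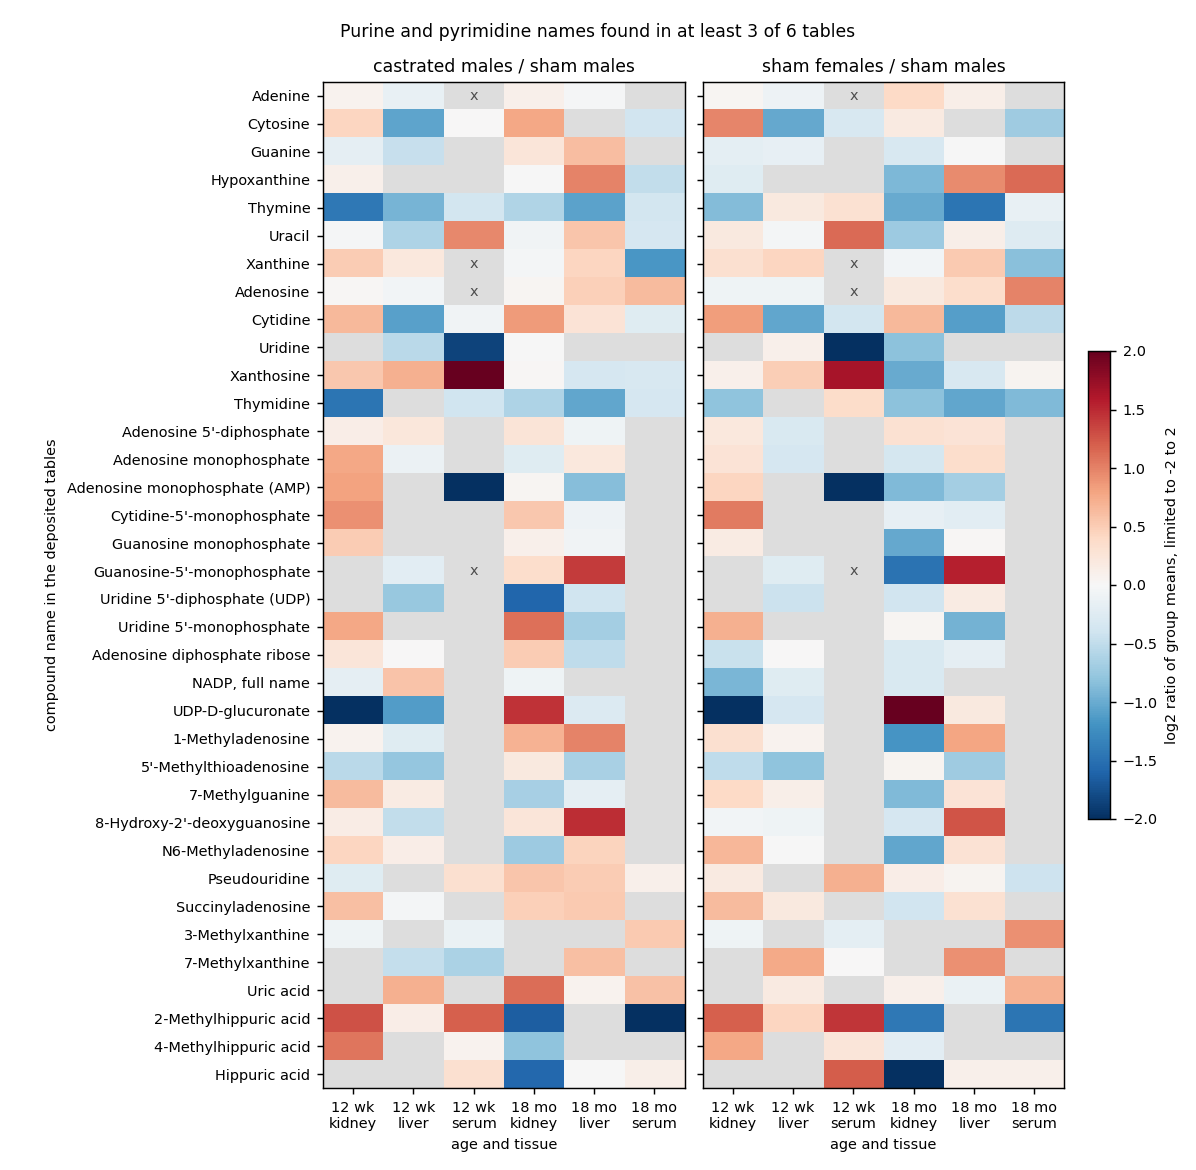
Log2 ratio of castrated males (left) and sham females (right) over sham males for the 36 names found in at least 3 tables, limited to the range from -2 to 2. Grey cells are not listed in that table, and x marks a compound at a repeated lowest value, for which no ratio is given. Thymine is blue in all 6 castration columns, and the female column of kidney at 18 months is mostly blue.

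Among the nucleotides, 5 of the 8 kidney entries at 12 weeks were higher after castration and 0 were lower, beside 13.7% and 10.4% of the table, with a median ratio of 0.77. These 5 entries stand for 3 compounds, AMP, CMP and UMP. AMP, left when ATP has given up its energy-rich phosphates and an activator of AMP kinase, was 17.3 in sham males against 30.1 in castrated males and 23.4 in females under 1 name and 12.6 in sham males against 21.4 in castrated males and 15.1 in females under the other. The castration ratios were 0.80 and 0.77, and the sex ratios were 0.43 and 0.27. CMP, a precursor of the CDP lipids, was 1.13 in sham males against 2.34 in castrated males and 2.27 in females and, under its other name, 0.503 in sham males against 0.944 in castrated males and 1.03 in females. Its castration ratios were 1.05 and 0.91, and females were as high (1.0 and 1.03).

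GMP in the same table was within the limit at 0.51. ADP, which the selecting words match under 1 of its 2 names, had a castration ratio of 0.13 there and of 0.52 under the other name, whose level was higher (3.45 in sham males against 4.93 in castrated males and 4.39 in females). ATP, listed in this table only, had a castration ratio of 0.13. In liver at 12 weeks AMP (-0.12), ADP (0.23), GMP (-0.20) and adenosine 2'-phosphate (-0.32) were all within the limit.

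At 18 months kidney AMP was within the limit after castration, with castration ratios of 0.041 and -0.24, and CMP was within the limit (0.54). Females had less AMP under the entry with the higher level (-0.88). GMP was 0.417 in sham males against 0.447 in castrated males and 0.205 in females under 1 name and 0.156 in sham males against 0.2 in castrated males and 0.0563 in females under the other, so that females alone were low by both (-1.02 and -1.47). ADP stayed within the limit for castration under both names in all 4 tables that list it. The ratios in liver at 12 weeks and in kidney and liver at 18 months were 0.23, 0.25 and -0.093 under the matched name and 0.11, 0.15 and -0.26 under the other. For sex the names disagree in liver at 18 months, with 0.27 for the matched one and -0.59, past the limit, for the other.

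The paired entries disagree in liver at 18 months. AMP was 5.84 in sham males against 3.25 in castrated males and 3.64 in females by 1 entry, ratios of -0.85 for castration and -0.68 for sex, and 0.0264 in sham males against 0.0306 in castrated males and 0.0337 in females by the other, ratios of 0.22 for castration and 0.36 for sex. GMP was 0.168 in sham males against 0.443 in castrated males and 0.492 in females by 1 entry, ratios of 1.40 for castration and 1.55 for sex, and 0.694 in sham males against 0.664 in castrated males and 0.705 in females by the other, ratios of -0.064 for castration and 0.023 for sex. Neither compound can therefore be given a direction in this table. Cyclic GMP, the messenger of nitric oxide, was listed only here, level between castrated and sham males and lower in females (-0.61).

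The purine nucleosides and bases are the steps from nucleotides to uric acid. Adenosine, which also signals through its own receptors, was within the limit in kidney and liver at both ages, with castration ratios of 0.031 and -0.061 at 12 weeks and 0.042 and 0.48 at 18 months. Its serum level at 18 months was 0.024 in sham males against 0.0372 in castrated males and 0.048 in females (0.63 for castration and 1.0 for sex). Adenine in kidney and liver stayed within the limit in all 4 of these tables, with castration ratios from -0.15 to 0.094.

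Inosine, made from adenosine by adenosine deaminase, was listed under that name in kidney at 18 months only. It was 3.63 in sham males against 6.37 in castrated males and 6.18 in females (0.81 for castration and 0.77 for sex). Allopurinol-1-ribonucleoside, which the selecting words do not match, had other ratios in that table (0.056 for castration and -0.35 for sex). Whether it and the inosine entry are separate compounds was not tested. Hypoxanthine, the base of inosine, was 6.9 in sham males against 6.85 in castrated males and 3.71 in females in the same table (-0.89 for sex). Castrated and sham males were alike in it. In liver at 18 months hypoxanthine was 1.46 in sham males against 2.9 in castrated males and 2.8 in females, higher in both other groups (1.0 for castration and 0.94 for sex). In serum at 18 months it was 0.0284 in sham males against 0.0202 in castrated males and 0.0624 in females (-0.49 for castration and 1.14 for sex), and in kidney at 12 weeks it was within the limit (0.10 for castration and -0.25 for sex).

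Xanthine, the product of xanthine oxidoreductase and the last step before uric acid, stayed within the limit after castration in kidney and liver, with ratios of 0.51, 0.22, -0.046 and 0.43. In serum at 18 months it was 0.0363 in sham males against 0.0162 in castrated males and 0.0203 in females (-1.17 for castration and -0.84 for sex), lower in both other groups. Xanthosine, its nucleoside, was higher in castrated males in liver at 12 weeks, at 0.259 in sham males against 0.424 in castrated males and 0.365 in females (0.71 for castration and 0.49 for sex). It was within the limit in the other kidney, liver and serum comparisons for castration except serum at 12 weeks, and at 18 months females were lower in kidney, at 0.736 in sham males against 0.751 in castrated males and 0.366 in females (-1.01). Guanine passed the limit once, in liver at 18 months (0.62), where its level was in the lowest 1.26% of the table. Guanosine in liver at 12 weeks had ratios of -0.43 for castration and -0.19 for sex.

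Uric acid itself was above sham males in castrated males in each of the 4 tables that list it, past the limit in 2. In liver at 12 weeks it was 0.0246 in sham males against 0.0402 in castrated males and 0.0279 in females (0.71 for castration and 0.18 for sex). The kidney level at 18 months was 0.00193 in sham males against 0.00416 in castrated males and 0.00207 in females (1.11 for castration and 0.10 for sex), at a level in the lowest 2.94% of that table. Females were near sham males in both. In serum at 18 months the castration ratio of 0.58 lay just inside the limit, and females were higher (0.0828 in sham males against 0.124 in castrated males and 0.134 in females, 0.69). In liver at 18 months both groups were close to sham males (0.069 for castration and -0.13 for sex).

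The modified bases and nucleosides are mostly released from RNA and DNA and are not reused. In kidney at 12 weeks 2 of 10 were higher after castration and 0 were lower, near the 13.7% and 10.4% of the table. The 2 were 7-methylguanine (0.63 for castration and 0.40 for sex) and succinyladenosine, both just past the limit. Succinyladenosine, the dephosphorylated form of an intermediate of AMP synthesis, was 10.3 in sham males against 15.6 in castrated males and 16.1 in females (0.60 for castration and 0.64 for sex). At 18 months 7-methylguanine was on the other side in kidney, at 0.0162 in sham males against 0.0103 in castrated males and 0.00876 in females (-0.66 for castration and -0.89 for sex). N6-methyladenosine, the most common internal mark of messenger RNA, was lower there too, at 0.0737 in sham males against 0.0447 in castrated males and 0.0359 in females (-0.72 for castration and -1.04 for sex), after ratios of 0.44 for castration and 0.67 for sex at 12 weeks.

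1-Methyladenosine, a mark of transfer RNA, was higher in castrated males at 18 months in kidney, at 0.00415 in sham males against 0.00671 in castrated males and 0.00182 in females (0.69 for castration and -1.19 for sex), and in liver, at 0.00505 in sham males against 0.0101 in castrated males and 0.0087 in females (0.99 for castration and 0.78 for sex). Its level was in the lowest 4.57% and 6.71% of those tables. Females therefore stood on opposite sides of sham males in the 2 organs. Pseudouridine, the most abundant modified nucleoside of RNA, stayed within the limit after castration in all 5 of its tables, with ratios from -0.24 to 0.56. Females had more of it in serum at 12 weeks, 4.58e-06 in sham males against 5.69e-06 in castrated males and 7.49e-06 in females (0.71 for sex).

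The entry for 8-hydroxy-2'-deoxyguanosine, a product of DNA oxidation, was 0.214 in sham males against 0.597 in castrated males and 0.511 in females in liver at 18 months, higher in both other groups (1.48 for castration). It was within the limit in the other 3 tables (0.14, -0.49 and 0.25 for castration). This compound has the same elemental composition as guanosine, which is not listed in liver at 18 months, and the identity of the entry was not tested. 3-Methylguanine in kidney at 18 months was lower in females (-0.31 for castration and -1.16 for sex).

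5'-Methylthioadenosine, the remainder of S-adenosylmethionine after polyamine synthesis, was lower in both other groups than in sham males in 3 of 4 tables. In liver it was 0.304 in sham males against 0.178 in castrated males and 0.174 in females at 12 weeks (-0.78 for castration and -0.80 for sex) and 0.219 in sham males against 0.139 in castrated males and 0.133 in females at 18 months (-0.65 for castration and -0.71 for sex). Kidney at 12 weeks had 3.54 in sham males against 2.44 in castrated males and 2.5 in females (-0.54 for castration and -0.50 for sex), just inside the limit. In kidney at 18 months the ratios were 0.20 for castration and 0.057 for sex.

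The methylxanthines are plant alkaloids and their breakdown products, which mice take up with food. 7-Methylxanthine was lower in castrated males in serum at 12 weeks, at 1.4e-05 in sham males against 9.05e-06 in castrated males and 1.4e-05 in females (-0.63 for castration). Its levels in liver at 12 weeks were 0.068 in sham males against 0.0487 in castrated males and 0.115 in females (-0.48 for castration and 0.76 for sex), the 1 member called higher in females in that table. At 18 months liver levels were 0.236 in sham males against 0.357 in castrated males and 0.445 in females (0.60 for castration and 0.91 for sex). The castration ratio in liver thus had opposite signs at the 2 ages, and females were above sham males at both. 3-Methylxanthine in serum at 18 months was 0.377 in sham males against 0.542 in castrated males and 0.713 in females (0.52 for castration and 0.92 for sex). In the carrier nucleotides, ADP-ribose stayed within the limit in all 4 of its tables, with castration ratios from -0.50 to 0.51. NADP, the hydride carrier of biosynthesis, was 0.354 in sham males against 0.311 in castrated males and 0.187 in females in kidney at 12 weeks, lower in females only (-0.19 for castration and -0.92 for sex). CDP-choline in liver at 18 months was lower in castrated males (-0.62 for castration and 0.068 for sex).

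The hippuric acids had some of the wider ratios among the matched names. 2-Methylhippuric acid was 0.192 in sham males against 0.463 in castrated males and 0.439 in females in kidney at 12 weeks (1.27 for castration and 1.19 for sex) and 0.186 in sham males against 0.0593 in castrated males and 0.0689 in females at 18 months (-1.65 for castration and -1.43 for sex). In serum its castration ratio was likewise 1.20 at 12 weeks and -2.22 at 18 months. Hippuric acid in kidney at 18 months was 0.0465 in sham males against 0.0156 in castrated males and 0.011 in females (-1.58 for castration and -2.08 for sex), and in serum at 12 weeks females were higher (0.32 for castration and 1.21 for sex). 4-Methylhippuric acid in kidney had castration ratios of 1.08 and -0.80 at the 2 ages.

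Serum at 12 weeks needs its own account, since a few purines there differed between groups by more than in any other table. Adenosine, adenine and xanthine were listed in sham males at 3.01e-09, the lowest value of that column, which 17 of its 1495 compounds share. A value that repeats at the bottom of a column may stand for a signal that was not found, so no ratio is given against it. In castrated males the same compounds were at 1.59e-07, 1.53e-06 and 4.13e-07, and in females at 1.48e-07, 1.6e-06 and 4.17e-07.

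The phosphorylated purines of that table went the other way. GMP was 6.58e-06 in sham males and at the repeated lowest value of its column in both other groups. Adenosine 2'-phosphate was 3.95e-06 in sham males, at the lowest value in castrated males and 5.35e-08 in females. AMP was 3.05e-06 in sham males against 4.69e-09 in castrated males and 5.37e-09 in females, and guanosine was 2.14e-06 in sham males against 1.94e-08 in castrated males and 1.28e-08 in females. The lowest values of the columns of castrated males and females were 2.87e-09 and 3.03e-09, so AMP was near them in both. The nucleotides and guanosine thus had their highest mean in sham males, and adenosine, adenine and xanthine lay above the lowest value in the other groups alone. These last were low there too. By their mean over the groups, adenosine was in the lowest 1.47% of the table, xanthine in the lowest 4.95% and adenine in the lowest 20.3%.

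Of all 1495 serum compounds at 12 weeks, 31 differed by more than 16-fold between castrated and sham males, and 7 of these were purines, 5 of them at a repeated lowest value in a group. No purine or pyrimidine differed by that much in another table. Xanthosine was 3.36e-07 in sham males against 2.39e-06 in castrated males and 1.05e-06 in females (2.83 for castration and 1.64 for sex). How many animals carry each of these serum means cannot be told from a mean.

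**Figure D4:**
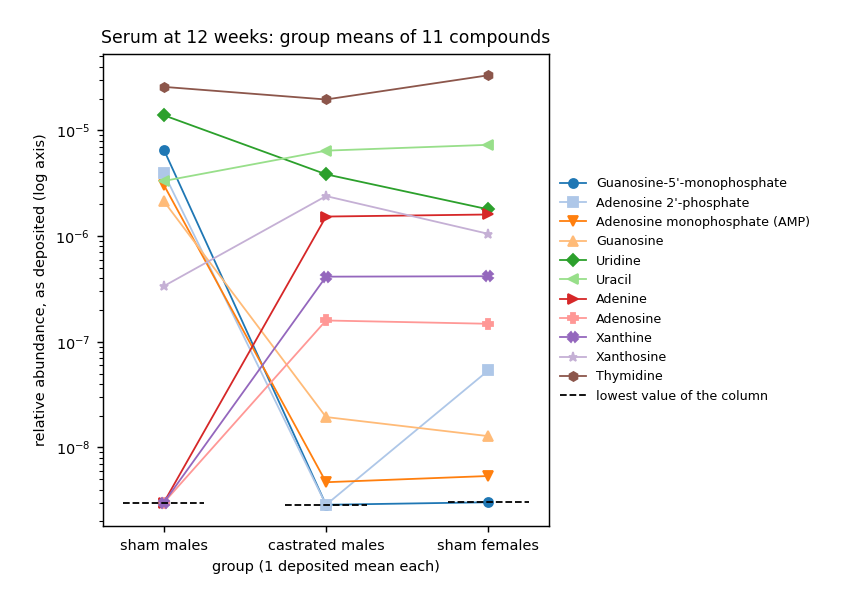
Deposited group means of 11 purines and pyrimidines in serum at 12 weeks, on a log axis, for sham males, castrated males and sham females, with dashed lines at the lowest value of each column. Adenosine, adenine and xanthine lie on the dashed line in sham males, while GMP lies on it in castrated males and females.

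The 24 names not given above by the rule used for full description, those in fewer than 3 tables and within 2-fold, make up 28 entries. Their castration ratios ran from -0.64 to 0.81 with 3 higher and 2 lower, and their sex ratios ran from -0.66 to 0.89 with 5 higher and 2 lower. They include inosine, cyclic GMP and ATP, which were described for their place in the pathway. Deoxyadenosine in liver at 12 weeks (0.68) and deoxyuridine in serum at 12 weeks (-0.64) were past the limit after castration.

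RNA of kidney and liver was measured in the same groups, with 3 libraries per sham group and 6 (12 weeks) or 5 (18 months) libraries of castrated males per tissue. A gene is said to rise or fall when the adjusted p in the authors' deposited table was under 0.05. In tissue RNA, fewer cells of a type and less RNA per cell cannot be told apart. Means are in FPKM, which divides fragment counts by gene length and depth, at 12 weeks and in an unnamed normalized unit at 18 months. The 12-week tables list each gene for only 1 comparison, so a count there is a lower bound. Kidney markers summed to between 2300 and 5537 in kidney and under 1 in liver, and the liver markers summed to between 18258 and 74030 in liver and between 54.7 and 268 in kidney. The liver gene Alb is listed at 0.01 in every group of liver at 12 weeks, although the other liver markers are high there.

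From 10 lists with 117 genes of purine and pyrimidine handling, 114 were measured. In kidney at 12 weeks 41 were listed for castration, of which 7 rose and 21 fell, beside 22.6% and 26% of the 5598 genes listed. In liver 11 rose and 10 fell of 40, beside 12.1% and 12.8% of 8479. At 18 months 20 rose and 28 fell of 113 in kidney, beside 9.58% and 13.1%, and 3 rose and 3 fell of 113 in liver, beside 1.08% and 1.01%. Past 1.5-fold on mean + 1 with no test, the kidney balance at 18 months turned to 12 higher and 8 lower. The median difference of log2(mean + 1) over the lists was -0.11 in kidney and 0.0048 in liver at 12 weeks, and 0.04 and 0.06 at 18 months. Over all expressed genes it was 0.01, -0.02, 0.13 and 0.12, so the 18-month means carry a general shift. The median log2 fold of the same 18-month genes in the authors' deposited table was -0.0086 in kidney and -0.017 in liver, and the called genes of the lists had the same direction by both.

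Between the sexes 6 genes were higher in females and 10 lower of 22 listed in kidney at 12 weeks, beside 41.8% and 39.7% of 3200. In liver 4 were higher and 2 lower of 6, beside 47.1% and 52.9% of 628. At 18 months 13 were higher and 27 lower of 113 in kidney, beside 7.91% and 8.9%, and 4 higher and 10 lower of 110 in liver, beside 5.87% and 3.91%. Counted past 1.5-fold on mean + 1 with no test, the balance was 10 higher and 9 lower in that kidney and turned to 11 higher and 4 lower in that liver.

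Urate transporters of the proximal tubule had the lowest median difference of the 10 lists in kidney at both ages, -0.77 and -0.51. At 18 months 5 of 9 fell and 3 rose there after castration, beside 13.1% and 9.58% of all genes tested. Slc22a12, the apical urate exchanger URAT1, went from 851 to 415 (log2 fold -1.19, SE 0.086, adjusted p 3.8e-41, the authors' DESeq2). Slc17a3, a sodium phosphate transporter that also carries urate, went from 188 to 62.5 (log2 fold -1.74, SE 0.12, adjusted p 9.4e-42, the authors' DESeq2). Slc22a6 (OAT1), Slc17a1 and the exporter Abcg2 also fell, and Abcc4 (18.9 to 43.5), Slc22a8 (OAT3, 251 to 398) and Slc22a13 rose. The SE is the one that the deposited fold and p-value imply.

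Of the 7 kidney segment markers, 3 rose and 2 fell after castration at 18 months and 4 were called higher and 1 lower in females, and their sums were 4550, 4857 and 5537 in sham males, castrated males and females. The proximal tubule marker Slc34a1 was 2692 in sham males, 2196 after castration and 1536 in females, and Lrp2, of the same segment, was 171, 143 and 219 in that order. Slc12a1 and Slc12a3, of later segments, were 168, 279 and 466 and 293, 487 and 490. The 4 blood genes, of which 2 rose after castration, summed to 2228, 3401 and 1760. The part of these markers in the transporter values was not tested.

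Females at 18 months had the same 5 transporters lower and Slc22a13 (45.5 to 192) and Abcc4 higher than sham males. In kidney at 12 weeks Slc22a6 (207 to 69 FPKM), Slc17a1 (331 to 128 FPKM) and Abcg2 (198 to 116 FPKM) fell after castration, each with an adjusted p of 0.000476 in the authors' deposited table. Slc22a12 and Slc17a3 are listed there for sex only and were lower in females, at 801 to 218 and 198 to 62.2 FPKM, and their means in castrated males were 245 and 44.8. Abcc4 was higher in females there (3.81 to 8.42 FPKM), and Slc22a8 rose after castration (231 to 387 FPKM). In liver Abcg2 fell at both ages, from 51 to 21.9 FPKM at 12 weeks and from 49.8 to 25.2 at 18 months.

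**Figure D5:**
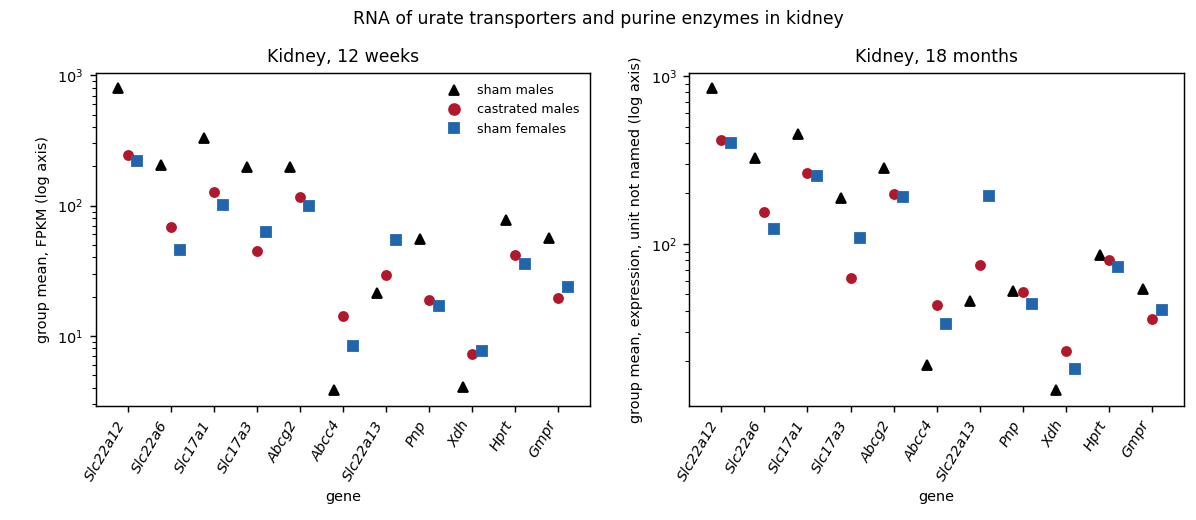
Group means of urate transporters and purine enzymes in kidney at 12 weeks (FPKM, left) and 18 months (unit not named, right) on log axes, without a spread, for sham males, castrated males and sham females. Slc22a12, Slc22a6, Slc17a1, Slc17a3 and Abcg2 have their highest mean in sham males at both ages, and Abcc4, Slc22a13 and Xdh their lowest.

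Of the purine breakdown genes in kidney, xanthine oxidoreductase (Xdh) rose after castration at both ages, from 4.02 to 7.31 FPKM at 12 weeks and from 13.4 to 22.9 at 18 months (log2 fold 0.56, SE 0.10, adjusted p 1.4e-07, the authors' DESeq2). In liver Xdh did not pass at 18 months and is listed for another comparison at 12 weeks. Purine nucleoside phosphorylase (Pnp), which splits inosine and guanosine, fell in kidney at 12 weeks from 55.8 to 18.8 FPKM and did not pass at 18 months (52.2 to 51.4). Adenosine deaminase (Ada) rose in kidney at 18 months from a low mean (1.75 to 3.54), and Urah, which acts after urate oxidase, fell (9.16 to 5.14). The adenosine deaminase relative Adal fell in kidney at 12 weeks (9.35 to 4.11 FPKM).

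Urate oxidase (Uox), which removes uric acid, did not pass for castration at 18 months and is not listed for it at 12 weeks. Its liver mean at 12 weeks was 854 in sham males against 951 in castrated males and 709 in females, in FPKM. At 18 months, in the unnamed unit, it was 1352 in sham males against 958 in castrated males and 1069 in females. In kidney at 18 months it was 0.443 in sham males against 1.15 in castrated males and 0.0367 in females, where the liver gene Alb was 21.7, 65.1 and 12.8 in the same order of groups. Of the 6 liver markers, 5 had higher means there in castrated than in sham males, and Ttr went the other way (98, 53.9 and 61.6). The authors' test called 0 of the 6 higher and 1 lower after castration, beside 9.58% and 13.1% of all genes. All 6 together summed there to 198.8, 268 and 84.8, and their part in the kidney values was not tested. The aldehyde oxidases, which also oxidize purines, fell in liver, Aox1 at 12 weeks (34 to 16.7 FPKM) and Aox3 at 18 months (178 to 62).

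Both purine salvage genes listed for castration in kidney at 12 weeks fell, Hprt and Guk1, the second named after its values were seen. Hprt, which returns hypoxanthine and guanine to nucleotides, went from 77.7 to 41.7 FPKM there and from 74.1 to 44.1 FPKM in liver. At 18 months its fall in kidney was smaller (86.1 to 80, log2 fold -0.25, SE 0.063). GMP reductase (Gmpr) fell in kidney at both ages (56.3 to 19.4 FPKM and 54.2 to 35.5). The adenylate kinase Ak4 (12.1 to 19.6 FPKM) rose in liver at 12 weeks. Of the synthesis genes Adssl1, which makes adenylosuccinate, rose in kidney at 18 months (2.93 to 5.37), and in liver at 12 weeks Adssl1 (9.92 to 16.3 FPKM) and Pfas (3.37 to 6.47 FPKM) were higher and Paics (78.4 to 48.9 FPKM) lower in females.

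Among pyrimidine genes, thymidine phosphorylase (Tymp), which splits thymidine to thymine, fell in liver at 12 weeks from 20.2 to 4.66 FPKM, and thymidine kinase (Tk1), which phosphorylates thymidine, rose from 31.6 to 95.1 FPKM. At 18 months Tk1 rose in kidney (6.88 to 10.3) and neither gene passed in liver. Uridine phosphorylase Upp2 rose in liver at 12 weeks (165 to 428 FPKM) and did not pass at 18 months (199 to 197), and Upp1 rose in kidney at 18 months (10.6 to 17.1). Cytidine deaminase (Cda) rose in liver at both ages, from 9.3 to 13.8 FPKM and from 6.41 to 17.9 (log2 fold 1.33, SE 0.37, adjusted p 0.0181, the authors' DESeq2). In kidney at 18 months Cda fell (294 to 262).

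All 5 listed genes of pyrimidine synthesis fell in kidney at 12 weeks, beside 26% of genes, among them CTP synthase (Ctps, 8.73 to 4.2 FPKM), the others being Cmpk1, Nme2, Rrm2 and Rrm2b, named after their values were seen. At 18 months 3 of 15 rose and 4 fell, beside 9.58% and 13.1%, with Rrm2 among those that rose. Dpyd, which opens uracil and thymine, was lower in female than in male kidney at both ages (10.7 to 5.47 FPKM and 28.8 to 22.9), as was Dpys at 18 months (36 to 14.7), and neither passed for castration at 18 months. The nucleotidase Nt5c3b rose in kidney at 18 months (5.51 to 11). In liver at 18 months Cda was the 1 pyrimidine breakdown gene of 12 that passed for castration.

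Of genes that handle nucleosides outside cells, the 5'-nucleotidase Nt5e, which releases adenosine from AMP, rose in liver at 18 months (3.62 to 19.2, log2 fold 2.25, SE 0.53, adjusted p 0.00203, the authors' DESeq2), and Enpp3 fell (27.8 to 15.7). Entpd8 was higher in female kidney at 12 weeks (17 to 45.8 FPKM). The lysosomal nucleoside transporter Slc29a3 fell in kidney at both ages (13.8 to 5.67 FPKM and 25 to 18.1). Leukocyte markers had higher means in castrated than in sham male liver for 6 of 6 genes at both ages. So did the endothelial markers (3 of 3) and the cholangiocyte and stellate markers (4 of 4), and the 18-month means carry a general shift. Of the leukocyte markers 2 were called higher at 12 weeks, beside 12.1% of the genes listed, and 0 at 18 months, beside 1.08%. Their sums in sham and castrated males were 20 and 30.7 at 12 weeks and 56 and 97.9 at 18 months. The part of these markers in the changes above was not tested.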

How the data were processed

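Untargeted metabolomics tables were deposited with 1 mean relative abundance per compound and group. No header names a unit, so the deposited values were treated here as a signal for kidney and liver and as a score of unstated range for serum. For scale, normalization, animal number and identification score the answer is the same: not given in the sources used here. Bare numbers (8 and 6) in the headers of the 18-month kidney and liver tables are not explained. Log2 ratios were computed here from these means. For RNA, the submitters' processing notes name HISAT2, SAMtools and Cufflinks with build mm10. The authors deposited FPKM means at 12 weeks, a normalized expression signal at 18 months, and tables of log2 folds (18 months), p-values and adjusted p-values, from DESeq2 at 18 months per the file headers and in the Cuffdiff layout at 12 weeks. The planned tests per animal or library were replaced by these, since only means are held, and depth is unknown. Direction came from the group means. The 18-month folds are deposited as sham males over the other group: of 1187 kidney genes called for castration and past 1.5-fold, 0 had the sign of the deposited fold and 1187 the opposite one, so the sign was turned. The members, the 10 gene lists and the tests were chosen with earlier results of these data known. Names in at least 3 tables or past 2-fold are each described, with group levels for most entries past 1.5-fold and ratios for the others. Genes named are the 8 largest called changes per tissue and age for castration and 4 for sex with a larger mean of at least 5, with 9 enzymes given in any case. Of the genes this rule picks, 1 is not reported here. Counting was tested on simulated data. Python 3.11.15, pandas 2.3.3, numpy 2.4.6 and scipy 1.17.1 were used.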

Additional observations from a re-analysis of the deposited data

How the results depend on the processing

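No paired analysis was possible because only group means were deposited, so a replicate block and leaving out a library were not run. Keeping the better identification scores and 1 feature per name had no use, since the tables give no score and list no member name more than once. Centring on the median of all compounds and counting 1 feature per compound left every count of members within 1.5 times its value, as did leaving out the hippuric acids, the last 2 chosen after the data were seen. The share of all compounds or genes was counted at the main settings only, so the counts below have no background beside them. With a fold limit of 2, castration counts past the limit were 6 (3 higher and 3 lower) and 3 in kidney and liver at 12 weeks and 6, 4 and 2 in kidney, liver and serum at 18 months, and sex counts were 4, 2, 10, 5 and 2 in the same order. Serum at 12 weeks had 10 for castration and 12 for sex at that limit. With the looser fold limit the counts were 21 (kidney, 12 weeks), 19 (liver, 12 weeks), 22 (liver, 18 months) and 11 (serum, 18 months) for castration and 12 in liver at 12 weeks for sex. Parent compounds alone gave 8 (kidney, 12 weeks), 8, 7 and 2 (kidney, liver and serum, 18 months) for castration, and 7, 2, 11 and 8 for sex in kidney and liver at 12 weeks and 18 months. Without compounds at a repeated lowest value, 8 of the serum compounds at 12 weeks were past the limit for castration. Counting pathway genes past 1.5-fold with no test gave 20 (12 higher and 8 lower, against 20 and 28 by the test) for castration in kidney at 18 months, and 41, 19 and 19 for sex in kidney and liver at 12 weeks and kidney at 18 months, with 1 added to the means. With 0.1 added it gave 26 (18 higher and 8 lower) and 11 for castration in kidney and liver at 18 months. For sex it gave 44 and 25 in kidney and liver at 12 weeks and 22 (13 and 9) and 22 (16 and 6) at 18 months, against 13 and 27 in kidney and 4 and 10 in liver by the test. At an adjusted p under 0.01 in the authors' deposited table, 3 genes passed for sex in liver at 12 weeks. The cause of these moves was not tested. The metabolite values have no replicate error, and entries for the same compound differed by up to 1.46 for castration.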

Other observations

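Several purines and related compounds have names that the selecting words do not match, and they were looked up after the rule had been applied. In kidney at 12 weeks IMP, the first complete purine nucleotide of synthesis, was listed as inosinic acid at 2.04 in sham males against 3.84 in castrated males and 4.15 in females and as 5'-inosinic acid at 0.978 in sham males against 1.74 in castrated males and 1.82 in females. The castration ratios were 0.91 and 0.83. AICA-riboside, a dephosphorylated intermediate on the way to IMP, was 0.222 in sham males against 0.413 in castrated males and 0.438 in females (0.90), and adenylosuccinic acid, the step from IMP to AMP, was 0.27 in sham males against 0.458 in castrated males and 0.512 in females (0.76). All 4 entries were higher in castrated males and in females than in sham males. At 18 months kidney adenylosuccinic acid had a castration ratio of -0.23 and 5'-inosinic acid of 0.44.

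Nicotinamide mononucleotide, the precursor of NAD, was 2.47 in sham males against 8.51 in castrated males and 6.23 in females in kidney at 12 weeks (1.79) and 0.815 in sham males against 1.69 in castrated males and 1.26 in females at 18 months (1.06). NAD itself had castration ratios of 0.19 and 0.35 there. S-adenosylmethionine is the methyl donor from which 5'-methylthioadenosine derives. In liver at 12 weeks it was 0.556 in sham males against 0.277 in castrated males and 0.304 in females (-1.01). Liver at 18 months had 0.119 in sham males against 0.0778 in castrated males and 0.0597 in females (-0.62). Kidney at 18 months did not share the castration difference, with ratios of 0.0061 for castration and -0.91 for sex. Beta-alanine, an end product of uracil breakdown that has other sources too, was 2.78 in sham males against 0.912 in castrated males and 0.466 in females in kidney at 18 months (-1.61). Elsewhere its castration ratio was 0.80 in serum and -0.17 in liver at 12 weeks and 0.18 in liver and 0.23 in serum at 18 months. Allantoin, made from uric acid, had a castration ratio of -0.34 in kidney at 18 months and 0.04 in serum at 12 weeks. UDP-glucose, from which UDP-glucuronate is made, was 1.58 in sham males against 0.853 in castrated males and 0.603 in females in liver at 18 months (-0.89).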
